A study of Mus musculus with 18 samples.

Results

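Stc1, Vip, Plk3, Pvr and Bnip5 are 5 genes that were named as lower in pancreatic islets of mice fed a high-fat diet (HFD), out of 22180 genes measured. They were taken as chosen by their diet differences in controls and TRAF2 knockouts, since the comparisons behind the choice are not stated, and those differences are given as values without a test. Each gene had 1 probe set that carried its symbol alone, and that probe set was used. The question asked was whether TRAF3 knockout islets showed the same diet difference as controls and TRAF2 knockouts.

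Islets came from male and female C57BL/6 mice aged 16 weeks, in 6 groups of 3 arrays. The knockouts carried RIPCre, in which the rat insulin promoter drives Cre recombinase in beta cells, together with TRAF2loxP/loxP or TRAF3loxP/loxP alleles, and the third genotype was littermate controls with floxed alleles. Which gene was floxed in the controls, and whether they lacked Cre, is not stated in the sources used here, and the series text writes TRAF2 for both knockouts, so each genotype was taken from the labels of its samples. Each genotype was kept on chow or given HFD with 45% of energy from fat for 8 weeks from 8 weeks of age. TRAF2 and TRAF3 are adaptor proteins that hold down NF-kB inducing kinase, and the series asked what activity of that kinase does in beta cells. Whole islets were profiled, so a low value cannot be told apart between fewer cells of a type and less RNA per cell. The labels do not say that the 3 samples of a group were separate animals, so p-values refer only to spread among these samples, which may be technical.

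The genes have different roles. Stc1 encodes stanniocalcin-1, a secreted glycoprotein hormone that acts locally in mammalian tissues. Vip encodes vasoactive intestinal peptide, a neuropeptide that raises cyclic AMP through its G protein-coupled receptors and enhances glucose-dependent insulin secretion. Plk3 encodes a polo-like kinase of the stress response whose transcript behaves as an immediate early gene in several cell types, and Pvr encodes the nectin-like adhesion molecule CD155, the ligand of the lymphocyte receptors DNAM-1 (Cd226), TIGIT and CD96. Bnip5 is named as a member of the BNIP family. An early gene is one whose transcription is induced within minutes to hours of a stimulus, often through cyclic AMP, calcium or MAP kinase signals.

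The arrays had medians of 4.80 to 4.96 on the log2 scale, and arrays of 1 group had Pearson's r between 0.9595 and 0.993 over genes. Islet hormones were high in every group: the group means of Ins2, Iapp, Gcg and Sst lay between 11.3 and 13.1, and acinar cell transcripts were also high, with group means of 13.2 to 13.4 for carboxypeptidase Cpa1. The Traf2 probe set, which summarises the transcript as a whole and so does not check the removal of the floxed part, read 6.90 to 7.501 in TRAF2 knockouts and 6.46 to 7.34 in controls, and the TRAF3 transcript is not analysed here. By Xist and 3 Y-linked genes, 10 of the 18 arrays were female: 1 of 3 in each chow group, 3 of 3 in the HFD controls, and 2 of 3 in each HFD knockout group. The array chow control 1, the female chow control, was below all of the other 8 chow arrays in 21.4% of genes and above all of them in 18%. These shares were not computed for any other array. Its mean r with its own group was 0.977, above the 0.969 of chow TRAF2 knockout 1 and the 0.9655 of HFD TRAF3 knockout 3 with theirs. Chow TRAF2 knockout 1 and HFD TRAF3 knockout 2 had the highest scores for T and B lymphocyte markers, 2.09 and 2.08, where a score is the mean log2 deviation of the listed genes from their means over all arrays.

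The regulatory sequence of 3 of the 5 genes was available from the RefSeq promoter table (GRCm38.p6), and the 250 bases before each start are shown because Plk3 and Bnip5 stood above the other HFD arrays in HFD TRAF3 knockouts while Vip did not. They are written 5′ to 3′ on the strand of the gene, with TGACG, the short form of the cyclic AMP response element, in capitals. They lie at chr10:5638968-5639217 on the plus strand for Vip, at chr4:117133964-117134213 on the minus strand for Plk3, and at chr17:28915325-28915574 on the minus strand for Bnip5.
Vip: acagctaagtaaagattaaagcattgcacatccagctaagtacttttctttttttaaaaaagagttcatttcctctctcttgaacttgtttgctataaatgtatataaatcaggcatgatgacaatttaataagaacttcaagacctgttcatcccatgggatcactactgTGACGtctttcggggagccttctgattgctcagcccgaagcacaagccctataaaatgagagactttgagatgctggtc
Plk3: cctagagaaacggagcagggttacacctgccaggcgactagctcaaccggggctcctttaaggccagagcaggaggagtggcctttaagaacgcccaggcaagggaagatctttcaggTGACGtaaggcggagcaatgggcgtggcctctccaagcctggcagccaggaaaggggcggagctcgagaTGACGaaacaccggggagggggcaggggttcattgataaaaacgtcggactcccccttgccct
Bnip5: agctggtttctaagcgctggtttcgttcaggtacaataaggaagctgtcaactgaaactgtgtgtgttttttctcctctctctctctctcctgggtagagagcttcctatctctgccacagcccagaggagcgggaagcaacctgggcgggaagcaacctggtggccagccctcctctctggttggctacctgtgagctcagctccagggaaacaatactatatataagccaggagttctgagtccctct
Windows of 300 bases, reaching 50 bases past the start, were searched on both strands. TGACG was found 1 time in Vip, beginning 79 bases before the start, and 2 times in Plk3, beginning 132 and 63 bases before it. It had 0 matches in the Bnip5 window, and it was present in 20.8% of all 32851 promoter windows. The whole element TGACGTCA, which contains TGACG, the AP-1 site TGANTCA and the hypoxia core ACGTG were in none of these 3 windows and in 1.79%, 7.81% and 19.6% of all windows. The kappaB-like pattern had 3 matches in Plk3 and none in Vip or Bnip5, against 50.8% of all windows with at least 1. These matches describe letters and do not show binding.

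Stc1 had the largest span of the 5 genes, 4.98 log2 units from the lowest to the highest array (probe set 17301594, chromosome 14). In controls it read 6.39, 8.98 and 8.74 on chow and 6.20, 6.17 and 5.24 on HFD. In TRAF2 knockouts it read 9.80, 9.50 and 10.22 on chow and 6.52, 6.53 and 6.24 on HFD. In TRAF3 knockouts it read 10.07, 9.49 and 9.33 on chow and 8.76, 8.65 and 9.02 on HFD. All HFD arrays of controls and TRAF2 knockouts were low, as was chow control 1, while the HFD arrays of TRAF3 knockouts lay beside the other chow controls. The diet difference (HFD minus chow) was -2.17 ± 0.48 (SE, n = 3 per group) in controls and -3.41 ± 0.48 in TRAF2 knockouts, the lowest of all 22180 genes there, a 10.6-fold difference. In TRAF3 knockouts it was -0.82 ± 0.48, with a 95% confidence interval from -1.85 to 0.21 (limma, Benjamini-Hochberg adjusted p = 0.360). The group means ran from chow TRAF2 knockouts (9.84 ± 0.36, SD) through chow TRAF3 knockouts (9.63 ± 0.39), HFD TRAF3 knockouts (8.81 ± 0.19), chow controls (8.04 ± 1.43) and HFD TRAF2 knockouts (6.43 ± 0.16) to HFD controls (5.87 ± 0.55). In that order the arrays of neighbouring groups overlapped, apart from chow against HFD TRAF3 knockouts and HFD TRAF2 knockouts against HFD controls.

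**Figure D1:**
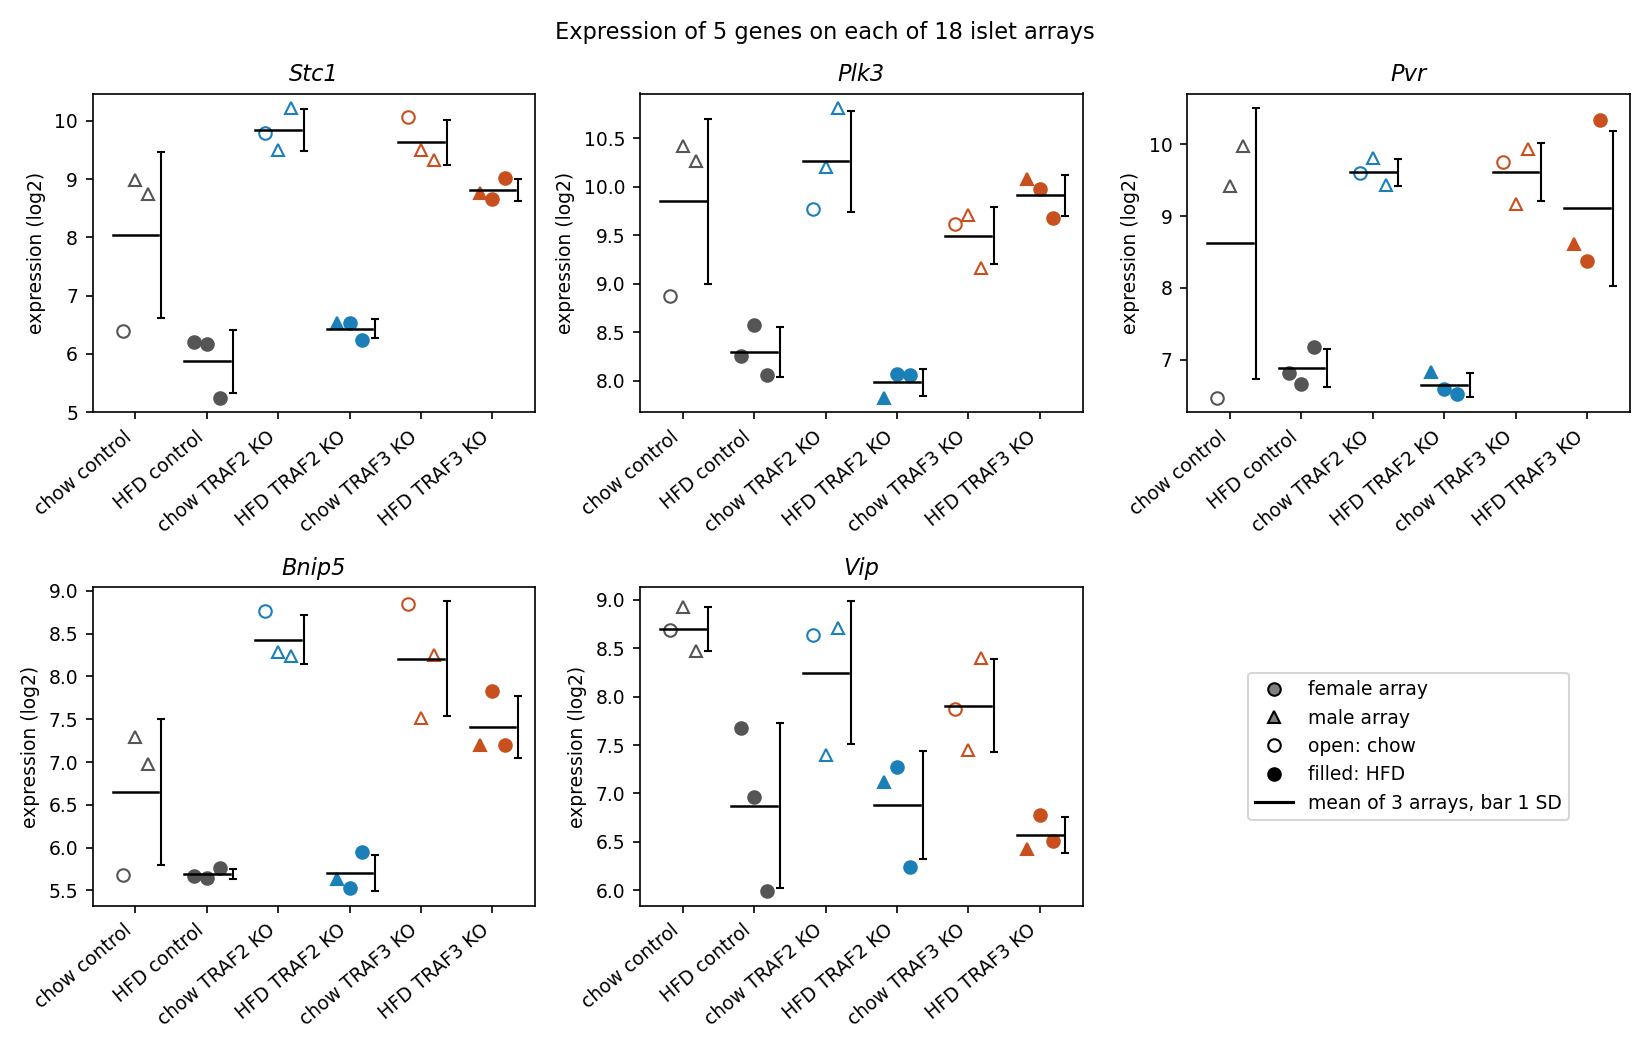
Log2 expression of Stc1, Vip, Plk3, Pvr and Bnip5 on each of the 18 arrays (vertical axis), with the 6 genotype by diet groups along the horizontal axis, circles for female and triangles for male arrays, open on chow and filled on HFD, with a line at each group mean and a bar of 1 SD over 3 arrays. For Stc1, Plk3, Pvr and Bnip5 the 3 HFD TRAF3 knockout arrays sit above the other 6 HFD arrays, and for Vip they sit among them.

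Pvr (probe set 17487489, chromosome 7) split the arrays in the same way. In controls it read 6.47, 9.41 and 9.98 on chow and 6.82, 6.67 and 7.18 on HFD. In TRAF2 knockouts it read 9.60, 9.80 and 9.43 on chow and 6.83, 6.59 and 6.53 on HFD. The TRAF3 knockouts read 9.75, 9.16 and 9.93 on chow and 8.61, 8.37 and 10.34 on HFD. Chow control 1 was below all 3 HFD controls, and HFD TRAF3 knockout 3 was the highest of all 18 arrays. The diet difference was -1.73 ± 0.66 in controls and -2.96 ± 0.66 in TRAF2 knockouts. In TRAF3 knockouts it was -0.51 ± 0.66, with an interval from -1.90 to 0.89 (limma, adjusted p = 0.730), and -1.12 ± 0.67 without HFD TRAF3 knockout 3. In order of the means, chow TRAF3 knockouts (9.61 ± 0.40, SD) and chow TRAF2 knockouts (9.61 ± 0.19) were followed by HFD TRAF3 knockouts (9.11 ± 1.07), chow controls (8.62 ± 1.88), HFD controls (6.89 ± 0.26) and HFD TRAF2 knockouts (6.65 ± 0.16). Every pair of neighbours in that order overlapped.

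Bnip5 (probe set 17342943, chromosome 17) differed between chow groups as well as between diets. In controls it read 5.68, 7.29 and 6.98 on chow and 5.67, 5.64 and 5.76 on HFD. In TRAF2 knockouts it read 8.76, 8.29 and 8.24 on chow and 5.63, 5.53 and 5.94 on HFD. The TRAF3 knockouts read 8.85, 7.51 and 8.26 on chow and 7.20, 7.83 and 7.20 on HFD. Chow control 1 lay within the range of the HFD controls, and both knockouts on chow were above all chow controls. The diet difference was -0.96 ± 0.36 in controls and -2.73 ± 0.36 in TRAF2 knockouts. In TRAF3 knockouts it was -0.79 ± 0.36, with an interval from -1.56 to -0.03 (limma, adjusted p = 0.207). The means were 8.43 ± 0.29 (SD) in chow TRAF2 knockouts, 8.21 ± 0.67 in chow TRAF3 knockouts, 7.41 ± 0.36 in HFD TRAF3 knockouts, 6.65 ± 0.86 in chow controls, 5.70 ± 0.21 in HFD TRAF2 knockouts and 5.69 ± 0.06 in HFD controls. Neighbours in that order overlapped throughout.

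Plk3 (probe set 17428766, chromosome 4) was the gene in which TRAF3 knockouts read higher on HFD than on chow on average. In controls it read 8.87, 10.42 and 10.27 on chow and 8.26, 8.57 and 8.06 on HFD. In TRAF2 knockouts it read 9.77, 10.20 and 10.81 on chow and 7.83, 8.07 and 8.07 on HFD. The TRAF3 knockouts read 9.62, 9.71 and 9.16 on chow and 10.08, 9.98 and 9.68 on HFD. The TRAF3 knockout diet groups overlapped, while in controls and TRAF2 knockouts every HFD array was below every chow array. The diet difference was -1.55 ± 0.33 in controls and -2.28 ± 0.33 in TRAF2 knockouts. The TRAF3 knockout difference was 0.42 ± 0.33, with an interval from -0.29 to 1.12 (limma, adjusted p = 0.529). The means ran from chow TRAF2 knockouts (10.26 ± 0.52, SD), HFD TRAF3 knockouts (9.91 ± 0.21), chow controls (9.85 ± 0.85) and chow TRAF3 knockouts (9.50 ± 0.29) to HFD controls (8.30 ± 0.26) and HFD TRAF2 knockouts (7.99 ± 0.14). The arrays of neighbouring groups overlapped except between chow TRAF3 knockouts and HFD controls.

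Vip (probe set 17231482, chromosome 10) was lower on HFD in all 3 genotypes, with no array of HFD above any chow array of the same genotype. In controls it read 8.69, 8.93 and 8.47 on chow and 7.67, 6.96 and 5.99 on HFD. In TRAF2 knockouts it read 8.63, 7.40 and 8.71 on chow and 7.12, 7.27 and 6.24 on HFD. The TRAF3 knockouts read 7.87, 7.45 and 8.40 on chow and 6.43, 6.78 and 6.51 on HFD. Chow control 1 was not low for this gene, and HFD TRAF3 knockouts lay within the range of the other HFD arrays. The diet difference was -1.82 ± 0.41 in controls and -1.37 ± 0.41 in TRAF2 knockouts. In TRAF3 knockouts it was -1.34 ± 0.41, a 2.52-fold difference with an interval from -2.20 to -0.47, which missed the threshold of 0.05 (limma, Benjamini-Hochberg adjusted p = 0.0540). With only the 6 TRAF3 knockout arrays in the fit, the adjusted p was 0.0381. Chow controls had the highest mean (8.69 ± 0.23, SD), followed by chow TRAF2 knockouts (8.24 ± 0.74), chow TRAF3 knockouts (7.91 ± 0.48), HFD TRAF2 knockouts (6.88 ± 0.56), HFD controls (6.88 ± 0.85) and HFD TRAF3 knockouts (6.57 ± 0.18). Neighbours overlapped except between chow TRAF3 knockouts and HFD TRAF2 knockouts, where chow ends and HFD begins.

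**Figure D2:**
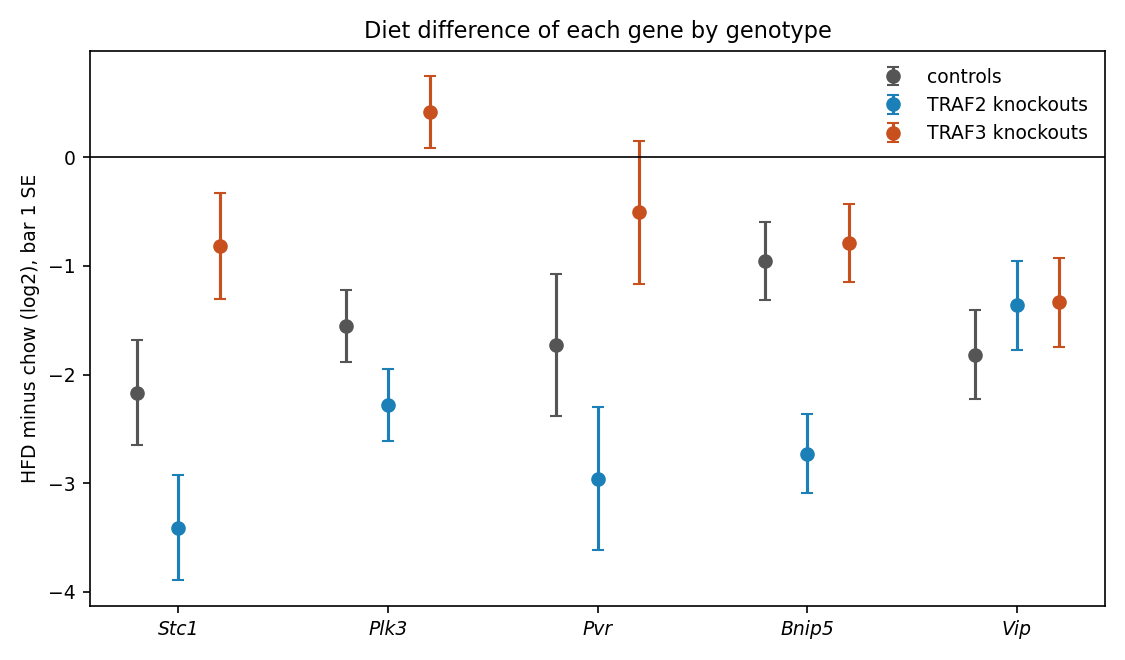
Difference between HFD and chow on the log2 scale (vertical axis) for each of the 5 genes (horizontal axis) in controls, TRAF2 knockouts and TRAF3 knockouts, with bars of 1 SE from the fit of all 18 arrays. The TRAF3 knockout values lie nearest to 0 for Stc1, Plk3, Pvr and Bnip5, from -0.82 to 0.42, and for Vip the 3 genotypes lie from -1.82 to -1.34.

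Read over the diet comparisons, the TRAF3 knockouts gave 0 of 5 genes past the threshold in either direction by limma. Of all genes 6.01% were called lower and 2.66% higher, 8.67% in all. At an unadjusted p under 0.05 stood 2 of the 5 genes, beside 4880 of all 22180 genes. A call that is missed does not show that the diet made no difference, and the intervals above give the sizes that remain possible. The labels name no array as unused in choosing the 5 genes, so whether the TRAF3 knockout arrays entered that choice is not known. The median diet difference of the 5 genes was -1.73 in controls, -2.73 in TRAF2 knockouts and -0.79 in TRAF3 knockouts, beside medians of 0.01, 0.01 and 0.02 over all genes. All HFD arrays lay below all chow arrays for Stc1, Vip and Plk3 in controls (background 9.42% of genes), for all 5 in TRAF2 knockouts (12.2%) and for Stc1 and Vip in TRAF3 knockouts (14.8%). Controls and TRAF2 knockouts were treated as the source of the choice, and nothing is read from their counts. At an adjusted p under 0.05, 0.361% of all genes were lower and 0.523% higher on HFD in controls (0.884% in all), and 1.08% were lower and 0.884% higher in TRAF2 knockouts (1.96% in all).

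As a description, the diet difference in TRAF3 knockouts was above that in TRAF2 knockouts by 2.59 ± 0.69 for Stc1, 2.69 ± 0.47 for Plk3, 2.45 ± 0.93 for Pvr and 1.93 ± 0.51 for Bnip5, and by 0.03 ± 0.58 for Vip. Above that in controls it stood by 1.97 ± 0.47 for Plk3, 1.35 ± 0.69 for Stc1, 1.22 ± 0.93 for Pvr, 0.48 ± 0.58 for Vip and 0.16 ± 0.51 for Bnip5. Without chow control 1 the gap to controls was 2.46 ± 0.34 for Plk3, 2.17 ± 0.39 for Stc1, 2.30 ± 0.57 for Pvr, 0.49 ± 0.63 for Vip and 0.65 ± 0.41 for Bnip5. The 3 genotypes share no array within these differences, but they were not tested because the diet differences in controls and TRAF2 knockouts were treated as having chosen the genes.

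On HFD the TRAF3 knockouts stood apart in 4 of the 5 genes. All 3 of their arrays were above the other 6 HFD arrays for Stc1, Plk3, Pvr and Bnip5, with gaps of 2.12, 1.10, 1.19 and 1.26 log2 units between the groups, while 4.60% of all genes had that order. The other 6 HFD arrays hold the low values for which the 5 genes were named, so nothing is read from this count. TRAF3 knockouts exceeded controls on HFD by 2.94 ± 0.48 for Stc1 (7.67-fold), 2.22 ± 0.66 for Pvr, 1.72 ± 0.36 for Bnip5 and 1.62 ± 0.33 for Plk3, and Vip differed by -0.30 ± 0.41. On the same diet, TRAF2 knockouts differed from controls by 0.56 ± 0.48 for Stc1 and by between -0.31 and 0.01 for the other 4 genes. On chow, both knockouts were higher than controls in Stc1, by 1.80 ± 0.48 in TRAF2 knockouts and 1.59 ± 0.48 in TRAF3 knockouts, and in Bnip5, by 1.78 ± 0.36 and 1.56 ± 0.36. Without chow control 1 these were 0.98 ± 0.29 and 0.77 ± 0.29 for Stc1 and 1.30 ± 0.30 and 1.07 ± 0.30 for Bnip5. The HFD arrays of the low genotypes read 5.24 to 6.53 for Stc1 and 5.53 to 5.94 for Bnip5, all above the median of every array.

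Genotype differences averaged over both diets leave out the diet differences within genotypes, and they were tested. Each average takes in the genotype difference on HFD given above. That these averages played no part in choosing the 5 genes is assumed, since the comparisons behind the choice are not stated. The p-values and counts of these averages hold only under that assumption. The HFD controls and HFD TRAF2 knockouts within the averages hold low values for which the genes were named. In TRAF3 knockouts against controls, 2 of 5 genes rose and none fell, beside 3.83% of all genes that rose and 2.77% that fell, 6.61% in all. Stc1 was 4.81-fold higher (2.27 ± 0.34, limma adjusted p = 0.00145) and Bnip5 3.12-fold higher (1.64 ± 0.25, adjusted p = 0.00172), and within each diet all 3 TRAF3 knockouts were above all 3 controls for both genes, an order held by 1.77% of all genes. Nothing is read from that order, since the HFD controls in it hold low values for which the genes were named. Pvr was 1.60 ± 0.46 higher, just outside the threshold (limma adjusted p = 0.0501, and from 0.0104 to 0.123 over 25 other settings), Plk3 was 0.63 ± 0.23 higher (adjusted p = 0.129), and Vip differed by -0.55 ± 0.29 (adjusted p = 0.311). Without chow control 1, Stc1 was 1.85 ± 0.19 higher (limma adjusted p = 0.000183), Bnip5 1.40 ± 0.20 (adjusted p = 0.00194) and Pvr 1.07 ± 0.29 (adjusted p = 0.0520). The median over the 5 genes was 1.60, against -0.01 over all genes.

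In TRAF2 knockouts against controls, averaged over diets, limma called 0 of 5 genes (0.897% of all genes were called, 0.784% higher and 0.113% lower). At an unadjusted p under 0.05 stood 2 of the 5 genes, beside 1807 of all 22180 genes. Stc1 was 1.18 ± 0.34 higher (adjusted p = 0.198), with an interval from 0.45 to 1.91, and Bnip5 0.90 ± 0.25 higher (adjusted p = 0.179), with an interval from 0.36 to 1.44. Pvr, Plk3 and Vip differed by 0.37 ± 0.46, 0.05 ± 0.23 and -0.22 ± 0.29. The direct comparison of TRAF3 with TRAF2 knockouts also called 0 of 5 (0.275% of all genes were called, 0.185% higher and 0.0902% lower). It had 4 of the 5 genes at an unadjusted p under 0.05, beside 2704 of all 22180 genes. There Pvr was 1.23 ± 0.46 higher in TRAF3 knockouts (limma adjusted p = 0.302), Stc1 1.08 ± 0.34 (adjusted p = 0.221), Bnip5 0.74 ± 0.25 (adjusted p = 0.252) and Plk3 0.58 ± 0.23 (adjusted p = 0.330), and Vip differed by -0.32 ± 0.29. The excess of TRAF3 knockouts over controls was therefore not shown to differ from that of TRAF2 knockouts when both diets were averaged.

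Among controls the size of the diet difference turned on chow control 1. That array was below the other 8 chow arrays in Stc1, Plk3, Pvr and Bnip5, where the other 8 began at 8.74, 9.16, 9.16 and 6.98. Without it the diet difference in controls was -2.99 ± 0.29 for Stc1, -2.80 ± 0.43 for Pvr, -2.04 ± 0.25 for Plk3 and -1.44 ± 0.30 for Bnip5, and it stayed at -1.82 ± 0.47 for Vip. Since all 3 HFD controls were female, the female arrays alone leave chow control 1 as the single chow control. The difference was then -0.52 ± 0.39 for Stc1, -0.58 ± 0.25 for Plk3, 0.42 ± 0.63 for Pvr, 0.016 ± 0.28 for Bnip5 and -1.81 for Vip. There was no male HFD control, so no diet difference can be given for male controls. The female chow arrays of both knockouts were not low: chow TRAF2 knockout 1 read 9.80 and chow TRAF3 knockout 1 read 10.07 for Stc1. In TRAF2 knockouts the diet difference was -3.41 among female and -3.34 among male arrays for Stc1, -1.71 and -2.68 for Plk3, -3.04 and -2.78 for Pvr, -3.02 and -2.63 for Bnip5, and -1.87 and -0.93 for Vip. In TRAF3 knockouts it was -1.23 among female and -0.65 among male arrays for Stc1, 0.21 and 0.65 for Plk3, -0.40 and -0.94 for Pvr, -1.33 and -0.68 for Bnip5, and -1.23 and -1.50 for Vip. Each of these rests on 1 or 2 arrays per diet and carries no test. Across genes chow control 1 correlated at 0.977 on average with its own group, 0.972 with HFD controls and 0.973 with HFD TRAF2 knockouts.

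**Figure D3:**
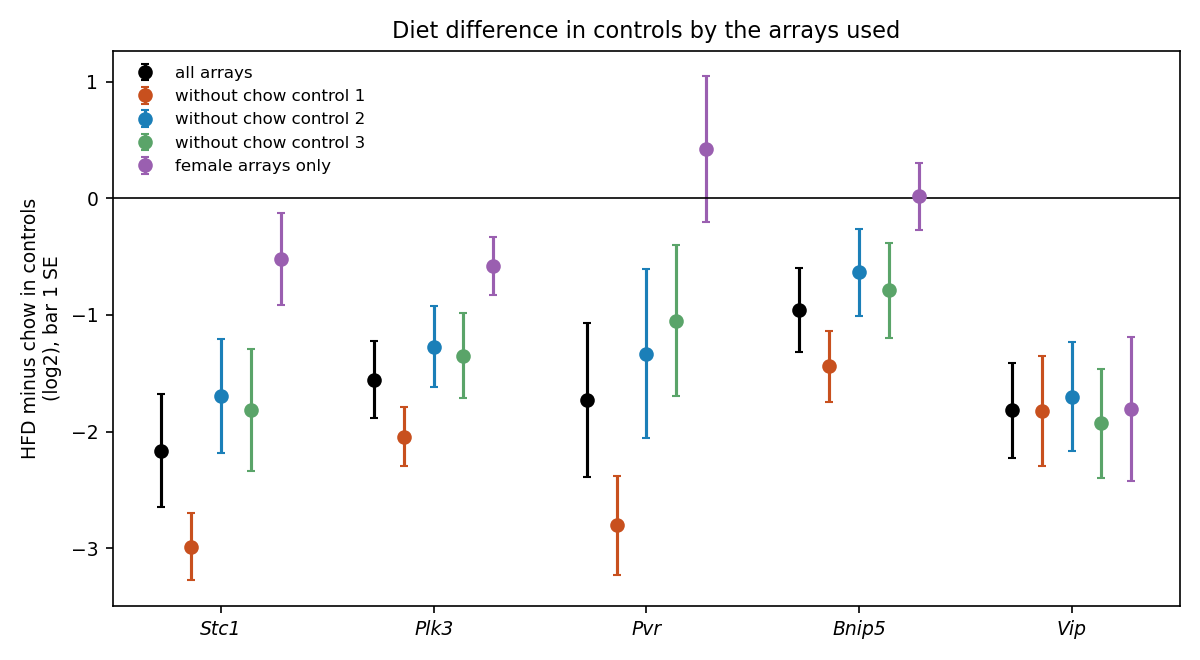
Difference between HFD and chow in controls on the log2 scale (vertical axis) for each of the 5 genes (horizontal axis), with all arrays, without each chow control in turn, and with female arrays alone, with bars of 1 SE. Vip lies between -1.93 and -1.70 in these 5 settings, while Stc1 ranges from -2.99 to -0.52 and Pvr from -2.80 to 0.42.

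Stc1, Pvr, Bnip5 and Plk3 ran together over the arrays and Vip ran apart. Over the 18 arrays, which share groups and normalization, Pearson's r was 0.94 for Stc1 with Bnip5, 0.91 for Stc1 with Pvr, 0.87 for Stc1 with Plk3, and 0.78 to 0.87 among the other 3 pairs of these 4 genes. Vip correlated with them at 0.37 to 0.46. Without chow control 1 the values for Vip were 0.52 to 0.59, and those among the 4 genes were 0.78 to 0.94. The arrays form a low and a high set for these genes, so these values describe mostly that split. After subtracting group means the 4 genes still correlated at 0.43 to 0.81. Without chow control 1 that fell to between -0.53 and 0.46, with r near 0 for Stc1 with Pvr (-0.0045) and 0.09 for Stc1 with Bnip5, so the likeness within groups rested on that array. Stc1 with Vip was then at 0.62.

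**Figure D4:**
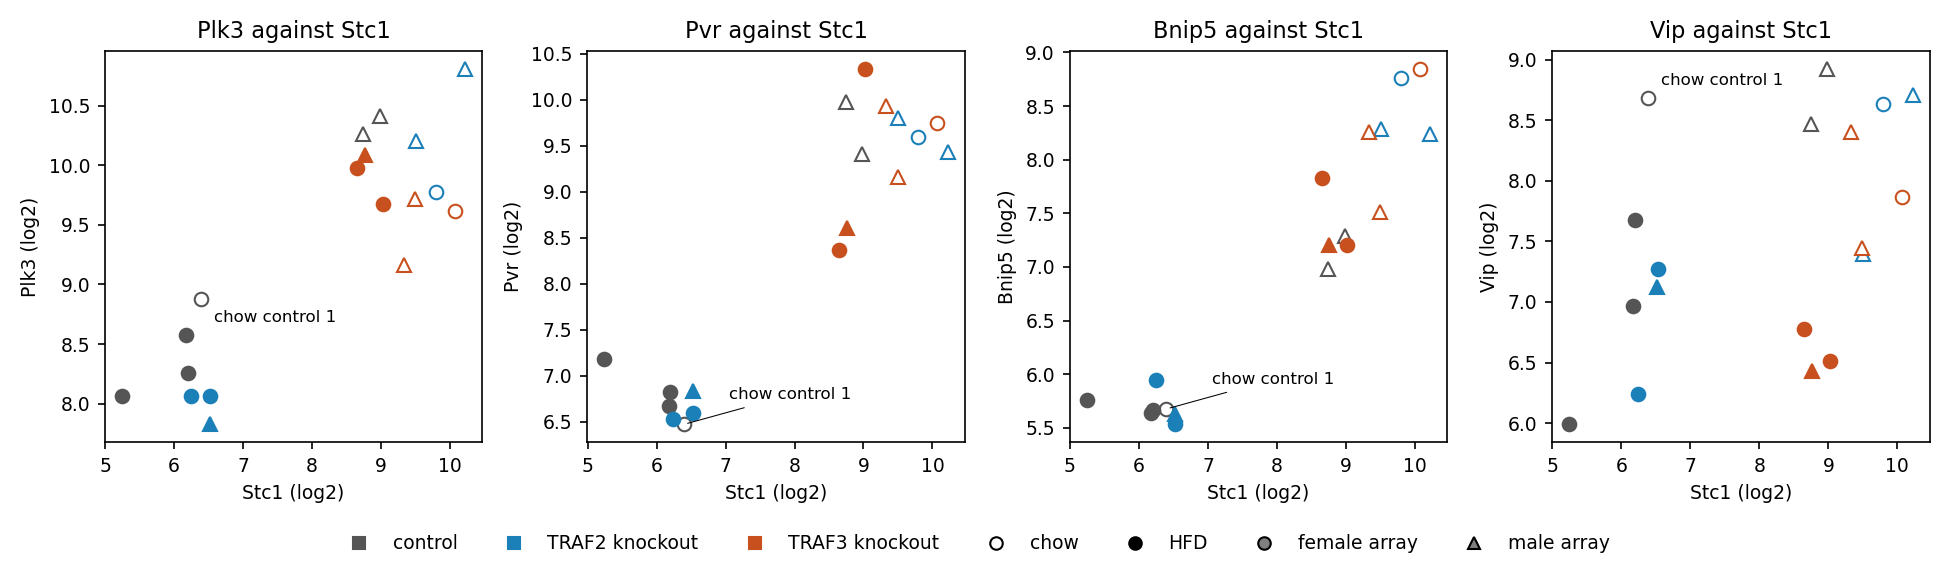
Log2 expression of Plk3, Pvr, Bnip5 and Vip (vertical axes) against that of Stc1 (horizontal axis), 1 point per array, coloured by genotype, open on chow and filled on HFD, circles for female and triangles for male arrays. The HFD controls, HFD TRAF2 knockouts and chow control 1 sit at Stc1 values of 5.24 to 6.53 and all other arrays at 8.65 to 10.22, and in the Vip panel the 3 HFD TRAF3 knockout arrays fall to the lower right.

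The genes most like each of the 5 over the 18 arrays were then listed by Pearson's r among 17306 genes, as a description. Closest to Stc1 were Pmepa1 (0.985), Mapk6 (0.982) and the NF-kB cofactor Bcl3 (0.978). Pvr was closest to the keratins Krt8 (0.984) and Krt18 (0.964) and to Tnfrsf12a (0.974), the receptor of TWEAK. Bnip5 was closest to the epithelial factor Elf3 (0.954), Bcl3 (0.953) and Ramp3 (0.948), so Bcl3 stood near both Stc1 and Bnip5. Plk3 was closest to Kctd20 (0.932), the kinase Dyrk1a (0.930) and Nabp1 (0.921). Vip had lower values at the top, with Serac1 (0.885), Pold3 (0.884) and Zfp507 (0.883).

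With group means removed, other genes came first. For Stc1 these were the transcription factors Stat3 (0.968) and Cebpb (0.933) and the surface protein Lrrc32 (0.943), which stood at 0.860, 0.701 and 0.759 without chow control 1. For Bnip5 they were the cytokine Il6 (0.916), the adhesion molecule Icam1 (0.896) and the prostaglandin synthase Ptgs2 (0.872), at 0.845, 0.799 and 0.796 without that array. Pvr was closest to Atp13a3 (0.984), Krt8 (0.967) and the nuclear receptor cofactor Nrip1 (0.964), and Krt8 was thus near it in both lists. Plk3 had Isg20 (0.929), the antioxidant enzyme Gpx1 (0.912) and Sdf2l1 (0.909), and Vip had Amer3 (0.876), Ubap2 (0.868) and Rptor (0.859).

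Genes of the families and pathways around the 5 genes were then counted, group by group. Of 8 ligands and receptors related to Vip, 0 passed by limma in any of the 6 comparisons of diet and averaged genotype. Adcyap1, which encodes the related peptide PACAP, differed by -1.20 ± 0.44 between diets in TRAF3 knockouts (limma adjusted p = 0.111), and Ghrh by 0.23 ± 0.16 (adjusted p = 0.480). Of 4 other polo-like kinases 0 passed in any comparison, with Plk1 at 0.08 ± 0.21 and Plk2 at -0.53 ± 0.24 between diets in TRAF3 knockouts. Plk3 differed by -1.55 and -2.28 between diets in controls and TRAF2 knockouts, where the medians of the other 4 kinases were 0.25 and 0.02.

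Around Stc1, whose protein inhibits pappalysin proteases that cleave insulin-like growth factor binding proteins, 5 genes were measured. Pappa2 rose 5.13-fold with HFD in TRAF3 knockouts (2.36 ± 0.47, limma adjusted p = 0.00680), the 1 of 5 that passed there, and 0 of 5 passed between diets in controls or TRAF2 knockouts. The mean of Pappa2 was 6.53 in chow and 8.89 in HFD TRAF3 knockouts, against 9.40 in chow and 9.66 in HFD controls. In TRAF2 knockouts against controls, averaged over diets, 2 of 5 rose: Igfbp5 by 2.68-fold (1.42 ± 0.15, limma adjusted p = 0.000127) and Pappa by 1.72-fold (adjusted p = 0.0210). In TRAF3 knockouts against controls 1 rose and 1 fell: Igfbp5 was 1.75-fold higher (0.81 ± 0.15, limma adjusted p = 0.00511) and Pappa2 3.54-fold lower (adjusted p = 0.00510). Around Pvr, 1 of 8 nectins, nectin-like molecules and CD155 receptors fell with HFD in TRAF3 knockouts, Nectin2 by -1.10 ± 0.26 (limma adjusted p = 0.0160), and 0 of 8 passed between diets in the other genotypes. Nectin2 averaged 9.17 in chow and 8.07 in HFD TRAF3 knockouts, and 7.86 in chow controls. Cd96, a receptor of CD155 on T and natural killer cells, rose 3.16-fold in TRAF2 knockouts averaged over diets (limma adjusted p = 0.00437), and the adhesion molecule Nectin1 fell by 0.56 ± 0.10 log2 units (adjusted p = 0.00732). In TRAF3 knockouts against controls Nectin1 also fell, by 0.36 ± 0.10 (limma adjusted p = 0.0393), and Nectin2 rose by 0.86 ± 0.18 (adjusted p = 0.0115). Lymphocyte scores ran from -1.09 to 2.09 among chow TRAF2 knockouts and from 0.10 to 1.32 among HFD TRAF2 knockouts, against -1.14 to 0.35 in controls, and the part of these cells in the Cd96 value was not tested.

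Of 7 measured BNIP and BCL2 survival genes, 2 fell with HFD in TRAF3 knockouts, Bcl2l1, which encodes the survival protein BCL-xL, by 1.00 ± 0.18 log2 units (limma adjusted p = 0.00408) and Bnip1 by 0.61 ± 0.14 (adjusted p = 0.0135). Bcl2l1 averaged 7.63 in chow and 6.63 in HFD TRAF3 knockouts, and 6.74 in chow controls. For Bnip1 these means were 8.33, 7.72 and 7.83. Between diets 0 of 7 passed in controls or TRAF2 knockouts, where Bnip5 differed by -0.96 and -2.73. Of 11 measured hypoxia genes, 4 fell and 1 rose with HFD in TRAF3 knockouts, with a median difference of -0.85. The carbonic anhydrase Car9 fell by 2.21 ± 0.35 (limma adjusted p = 0.00164), the collagen prolyl hydroxylase P4ha1 by 1.61 ± 0.20 (adjusted p = 0.000344) and the glycolytic enzyme Pgk1 by 1.22 ± 0.21 (adjusted p = 0.00269). Car9 averaged 7.12 in chow and 4.91 in HFD TRAF3 knockouts, and 4.52 in chow controls. For P4ha1 these means were 10.29, 8.68 and 9.15, and for Pgk1 11.91, 10.69 and 10.64. In TRAF2 knockouts 2 of 11 fell with HFD, and in controls 0 did. Averaged over diets 4 of 11 rose in TRAF3 knockouts, among them the glucose transporter Slc2a1, 2.83-fold higher (limma adjusted p = 0.00510).

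Early genes were lower by their median on HFD in controls and TRAF2 knockouts and higher in TRAF3 knockouts. The median diet difference over 22 genes was -0.68 in controls and -1.13 in TRAF2 knockouts, where 1 and 7 fell, and 1.08 in TRAF3 knockouts, where 10 rose and 1 fell. Fosb, a subunit of the transcription factor AP-1, rose 32.1-fold with HFD in TRAF3 knockouts (5.01 ± 0.99, limma adjusted p = 0.00666), the stress factor Atf3 7.22-fold (adjusted p = 0.00904) and the orphan nuclear receptor Nr4a1 6.06-fold (adjusted p = 0.0256). Ier3 differed the other way, by -1.65 ± 0.46 (limma adjusted p = 0.0355). Averaged over diets, 15 of 22 rose in TRAF3 knockouts against controls and none fell, with Ier3 at 5.15-fold (limma adjusted p = 0.000813), while 0 of 22 passed in TRAF2 knockouts and 1 of 22 rose in TRAF3 against TRAF2 knockouts. Array by array the early gene score was -0.82, 0.07 and 0.02 in chow controls and -1.05, -0.73 and -1.14 in HFD controls. It was 0.15, 0.44 and 0.96 in chow and -0.77, -0.84 and -0.62 in HFD TRAF2 knockouts. The TRAF3 knockouts had 0.15, -0.15 and 0.17 on chow and 1.85, 1.77 and 0.55 on HFD. Chow control 1 was thus low in this list as well, and HFD TRAF3 knockout 3 was below the other 2 of its group, while Pvr was highest in that array.

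**Figure D5:**
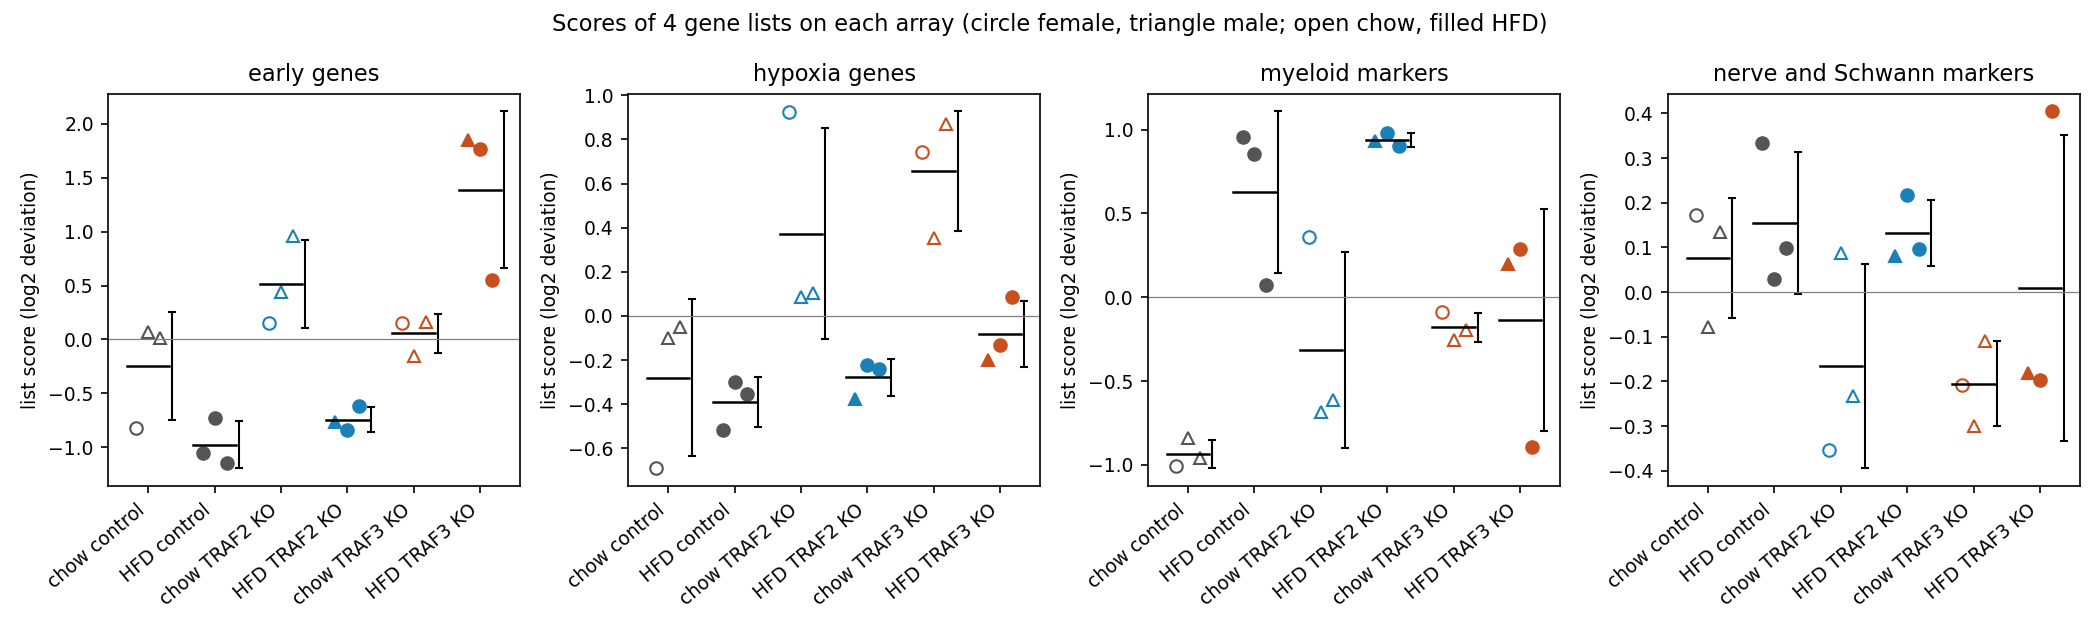
Scores of the early genes, hypoxia genes, myeloid markers and nerve and Schwann cell markers on each array (vertical axes, mean log2 deviation from each gene's mean over all arrays), by group along the horizontal axes, with lines at group means and bars of 1 SD. The 3 HFD TRAF3 knockout arrays have early gene scores of 0.55 to 1.85 against -1.14 to -0.62 in the other 6 HFD arrays, and the HFD controls and HFD TRAF2 knockouts have myeloid scores of 0.07 to 0.98.

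Markers of other cells moved with the diet beside the 5 genes. Of 12 myeloid markers 6 rose with HFD in controls (median 1.56) and 4 in TRAF2 knockouts (1.12), and in TRAF3 knockouts 0 rose and 1 fell (0.38). Myeloid scores were -1.0045 to -0.84 in chow controls and 0.07 to 0.96 in HFD controls, -0.69 to 0.36 and 0.90 to 0.98 in TRAF2 knockouts, and -0.25 to -0.09 and -0.90 to 0.29 in TRAF3 knockouts. The groups in which Stc1, Plk3, Pvr and Bnip5 were lowest were those with the highest median myeloid scores (0.85 in HFD controls and 0.93 in HFD TRAF2 knockouts), while chow control 1 had the lowest myeloid score of all 18 arrays, and the part of these cells in the differences was not tested. Markers of stellate cells, fibroblasts and pericytes rose in 1 of 11 cases in controls and in TRAF2 knockouts and in 0 in TRAF3 knockouts, with medians of 0.90, 0.72 and 0.63, and lymphocyte markers in 0 of 9 in each genotype.

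Vip is a transcript of nerve fibres in many tissues, and nerve and Schwann cell markers were examined beside it. Of 12 measured, 0 passed between diets in controls and TRAF2 knockouts and 1 rose in TRAF3 knockouts, with medians of 0.00, 0.14 and 0.07. Their score was -0.08 to 0.17 in chow and 0.03 to 0.33 in HFD controls, -0.35 to 0.09 and 0.08 to 0.22 in TRAF2 knockouts, and -0.30 to -0.11 and -0.20 to 0.40 in TRAF3 knockouts. Levels differed among these markers. Chat, which marks cholinergic neurons, had group means of 4.08 to 4.38, below the median of every array. Slc18a3, on the same list, had group means of 5.77 to 6.25, above every array median. Group means of Th, Npy, Gal, Nos1 and Prph were also above it, at 5.39 or more. Of 9 measured beta cell markers 7 rose with HFD in TRAF3 knockouts and 0 passed in controls or TRAF2 knockouts, and 5 of 9 fell in TRAF3 knockouts against controls averaged over diets. The beta cell score was -1.42 to -0.62 in chow and -0.15 to 0.37 in HFD TRAF3 knockouts. It was 0.11 to 0.64 in chow and 0.04 to 0.41 in HFD controls, and -0.86 to 0.31 and 0.26 to 0.38 in TRAF2 knockouts. Among the remaining cell type lists, the diet comparisons called 1 of 10 acinar markers higher in controls, 2 of 10 endothelial markers lower and 1 of 6 other endocrine markers higher in TRAF3 knockouts, and 0 of 5 ductal markers in any genotype.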

How the data were processed

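Transcripts of mouse islets were measured on 18 single-colour whole-transcript arrays from 250 ng of total RNA each. The authors deposited log2 values per probe set. The submitters' processing notes name limma and RMA, which corrects background, equalises arrays by quantiles and summarises probes, without versions, and a genome build is not given in the sources used here. Because RMA equalises the distributions of the arrays, a shift shared by most genes would not be seen.

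Of 41345 probe sets, 23521 had 1 gene symbol in the platform annotation, 1814 had several and 16010 had none there. Those with 1 symbol were kept, and for the 1082 genes with several the probe set with the highest mean was used, which left 22180 genes. No value was missing and no pair of arrays was identical. Group means were fitted to all 18 arrays with limma 3.58.1 (R 4.3.3, lmFit and eBayes, 12 residual and 3.69 prior degrees of freedom). Tests were two-sided, with Benjamini-Hochberg adjustment over all genes and a threshold of 0.05. With 3 arrays per group, the number of arrays limits the precision. Tested on simulated data, the fit recovered 74 of 100 genes changed by 1 log2 unit in the TRAF3 knockout diet comparison and 96 of 100 changed by 2.

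The 5 genes, the gene lists and the comparisons were chosen with earlier results of these data known. Named beside them were up to 4 genes per pathway list with the largest changes among those that passed a tested comparison (where none passed, the first 2 measured), and the 3 genes most like each of the 5 by Pearson's r, leaving out placeholder, receptor and immunoglobulin families and small RNA genes. Traf2, Ins2, Iapp, Gcg, Sst, Cpa1, Chat, Slc18a3, Th, Npy, Gal, Nos1 and Prph fall outside this rule and were named after their values were seen. Likeness was computed over arrays both as measured and after subtracting group means. Deviations from group means had a median r of 0.03 between samples with the same replicate number (from -0.55 to 0.53). Between samples with different numbers it was -0.03 (from -0.49 to 0.55). Samples were not paired by number, since these values were alike and no shared origin is stated. Alternatives changed 1 choice at a time, and female arrays alone and the removal of both lymphocyte-rich arrays were chosen after seeing the data.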

Additional observations from a re-analysis of the deposited data

How the results depend on the processing

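The count of the 5 genes called lower on HFD in TRAF3 knockouts (adjusted p under 0.05) was 0, and it was 1 (Vip) when arrays were centred on their medians, dim genes were left out, only the groups compared were fitted, or an acinar or ductal score was a covariate (0 to 1 when each array was left out). Vip passed in 6 of 19 alternatives there, with adjusted p from 0.0350 to 0.690 by limma. In TRAF3 knockouts against controls averaged over diets, Stc1 and Bnip5 passed in all 25 alternatives run and Pvr in 9 of 25, and the count was 4 with female arrays alone (2 to 3 when each array was left out). Female arrays alone leave 1 array in each chow group, with chow control 1 as the single chow control. That array was low in Stc1, Plk3, Pvr and Bnip5, so nothing is read from the number of the 5 genes called there. The calls over all genes with female arrays, given below, also rest on 1 array in each chow group. With female arrays alone 3 genes had a lower mean on HFD in controls (untested, 5 with all arrays), and Pvr and Bnip5 reversed there, to 0.42 and 0.016. TRAF3 against TRAF2 knockouts gave 1 with only the groups compared. The replicate number as a block (no shared origin is stated) moved Pvr in TRAF3 knockouts against controls to an adjusted p of 0.0413 by limma and the count of calls over all genes from 1465 to 1492. No value came from using a second probe set, since each of the 5 genes has 1.

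Calls over all genes depended more on the settings, and the cause was not tested. In controls 196 genes were called between diets, against 487 with median centring, 306 without dim genes, 78 with only the groups compared, 48 with the sex score, 325 with the acinar and 1052 with the ductal score, 55 with female arrays and 466 without the lymphocyte-rich arrays (19 to 603 when each array was left out). In TRAF2 knockouts 435 became 685 with median centring, 707 with the acinar and 1117 with the ductal score, 74 with female arrays and 732 without the lymphocyte-rich arrays (123 to 520). In TRAF3 knockouts 1923 became 608 with only the groups compared and 125 with female arrays (618 to 2466). Averaged over diets, 199 for TRAF2 knockouts became 336 with the ductal score (127 to 209), and 1465 for TRAF3 knockouts became 2324 with the acinar score and 538 with female arrays (732 to 1601). TRAF3 against TRAF2 knockouts had 61, which became 10 with every probe set tested, 237 with the acinar and 28 with the ductal score, 378 without the lymphocyte-rich arrays and 0 by limma with female arrays, where 963 had an unadjusted p under 0.05 (7 to 419).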
